A study of Mus musculus with 6 samples.

Results

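The genes described here are 6 chemokine ligands, Ccl1, Ccl3, Ccl4, Ccl5, Cxcl2 and Xcl1, taken by name; all 6 were among the 18122 genes of the deposited table. The cells were ILC2s (group 2 innate lymphoid cells), which lack antigen receptors and release type 2 cytokines, sorted from mouse lung and cultured before bulk RNA sequencing. Of the 6 libraries, 3 came from ICOS KO mice, labelled C.129S4-Icostm1Shr/J, in which Icos, encoding a co-stimulatory receptor of lymphocytes, is targeted; by mouse nomenclature this name denotes an allele from a 129S4 donor on a BALB/c background. They were compared with 3 libraries from wild-type (WT) mice, labelled BALB/C BYJ. Strain and Icos genotype thus changed together, and their effects cannot be told apart. The sources used here give no age, culture condition or stimulus. Whether the libraries came from separate mice is not in the labels, and p-values therefore reflect library-to-library spread alone, possibly technical.

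Chemokines are small secreted proteins that draw leukocytes towards their source by binding G protein-coupled receptors, and they are grouped by the spacing of their first cysteines into CC, CXC and XC families. Many chemokine genes are switched on within hours of cell activation by the transcription factors NF-kB, NFAT and AP-1, and many of their mRNAs are short-lived because their 3' untranslated regions (UTRs) hold AU-rich elements. In lung, chemokines released by ILC2s are known to act on eosinophils, dendritic cells, T cells and other ILC2s.

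The libraries held 13738058 to 15543016 estimated counts in ICOS KO and 14976127 to 18736450 in WT, and 3 reads were worth 0.193 to 0.218 CPM (counts scaled to a common library total) in a single ICOS KO library and 0.160 to 0.200 CPM in a single WT library; such floors cover counting error only. Icos, on chromosome 1 at 60977927 to 61000320 (GRCm38), stood at 140, 170 and 161 CPM in ICOS KO replicates 1 to 3, against 434, 462 and 502 CPM in WT replicates 1 to 3. On the log2 scale ICOS KO over WT was -1.57 ± 0.10 (SE; edgeR quasi-likelihood test, adjusted p = 1.27e-05). All 12 listed ILC2 markers were detected and tested. Areg, Klrg1, Arg1 and Il1rl1 rose (log2 fold changes 1.41, 1.21, 0.72 and 0.45), Rora fell (-0.47), and 9 of the 12 had an unadjusted p under 0.05. The share of all tested genes under that unadjusted level was not computed, here or for the lists below. Sums of the 12 markers, 10380 to 11170 CPM in ICOS KO and 9740 to 10860 CPM in WT, were carried mostly by Il5, at 6049 ± 309 CPM in ICOS KO and 6460 ± 533 CPM in WT (SD, n = 3 each). ICOS KO replicate 2 stood farthest from the rest on the first principal component, where it scored 54.71, replicates 1 and 3 scored 9.33 and 27.51, and WT scores ran between -35.02 and -22.28. Of the signs of RNA quality, the mitochondrial share was 0.329%, 0.616% and 0.492% of counts in ICOS KO replicates 1 to 3, against 0.263%, 0.294% and 0.422% in WT replicates 1 to 3, and Malat1, a nuclear RNA, stood at 811, 1687 and 1413 CPM in ICOS KO, against 610, 664 and 996 CPM in WT. Both measures tended higher in ICOS KO, overlapped between the genotypes and were highest in ICOS KO replicate 2.

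Of the 6 ligands, Ccl3 and Ccl4 fell in ICOS KO, and neither Ccl5 nor Cxcl2 passed the test. Xcl1 and Ccl1 were near the floor of detection, did not pass the filter on low counts and were not tested. So 4 of 6 members were tested and 2 were called lower at an edgeR adjusted p of 0.05; over all 13691 genes tested 2.01% were called lower, 1.29% higher and 3.29% in either direction. Levels in CPM are scaled by library size and TMM factors, and log2 fold changes are those of the fit over all genes.

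**Figure D1:**
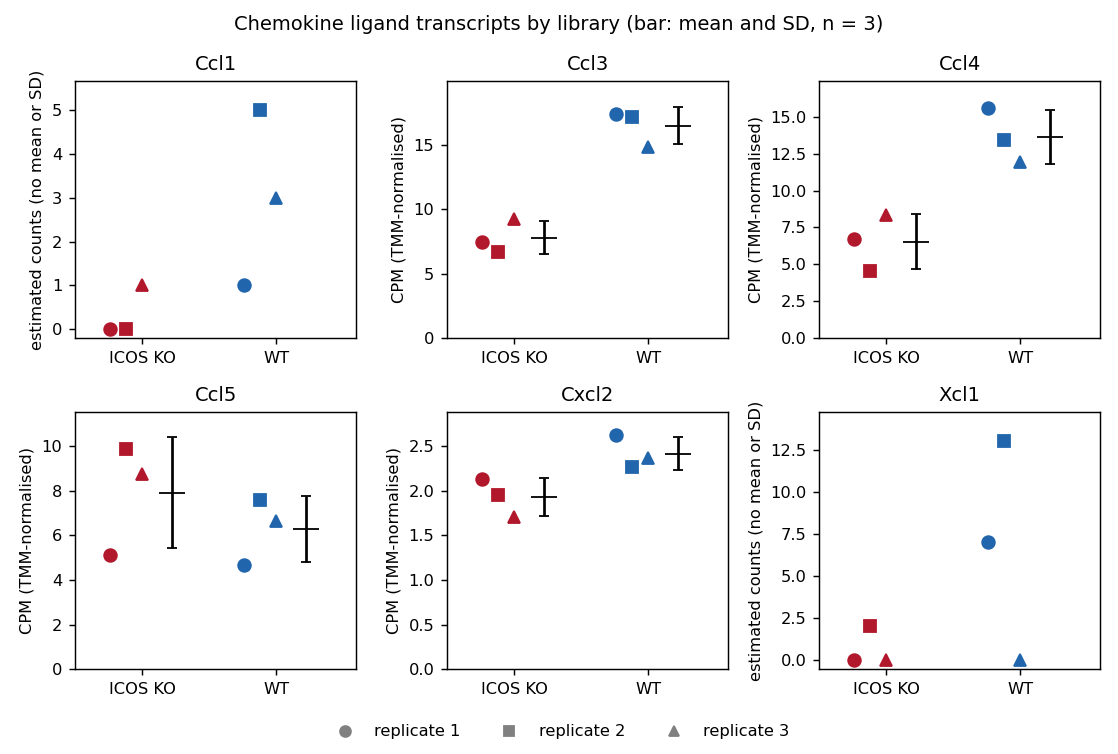
Values of the 6 chemokine ligands in each ICOS KO library (red) and each WT library (blue), with marker shape giving the replicate; Ccl3, Ccl4, Ccl5 and Cxcl2 are in TMM-normalised CPM with the mean and SD (n = 3), and Ccl1 and Xcl1 are in estimated counts. All ICOS KO libraries lie below all WT libraries for Ccl3, Ccl4 and Cxcl2, as for 12.5% of all genes tested, while those of Ccl5 overlap.

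Ccl3 encodes the CC chemokine macrophage inflammatory protein 1-alpha, a ligand of Ccr1. The gene lies on the minus strand of chromosome 11 at 83647844 to 83649355 (GRCm38, GENCODE M21). It stood at 7.49, 6.69 and 9.20 CPM in ICOS KO replicates 1 to 3, against 17.4, 17.1 and 14.8 CPM in WT replicates 1 to 3. The highest ICOS KO library lay below the lowest WT library, as was the case for 12.5% of all tested genes. The means were 7.80 ± 1.28 CPM in ICOS KO and 16.5 ± 1.43 CPM in WT (SD, n = 3 each), and the log2 fold change was -1.08 ± 0.19 (SE; edgeR adjusted p = 0.0105) with a 95% interval of -1.50 to -0.65. Leaving out WT replicate 1 or WT replicate 2 ended the call (edgeR adjusted p = 0.0603 and 0.0618), where the log2 fold changes were -1.04 and -1.05. Without ICOS KO replicate 2 it was kept, at -0.98 (adjusted p = 0.0324).

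Ccl4 encodes macrophage inflammatory protein 1-beta, a CC chemokine that draws monocytes and T cells. It is the next gene in the cluster, on the plus strand at 83662584 to 83664683, with a gap of 13.2 kb to Ccl3. It stood at 6.72, 4.59 and 8.31 CPM in ICOS KO replicates 1 to 3, against 15.6, 13.4 and 11.9 CPM in WT replicates 1 to 3. Here too the groups did not overlap, as for 12.5% of all tested genes in this direction, and ICOS KO replicate 2 was the lowest library, as for Ccl3. The means were 6.54 ± 1.87 CPM in ICOS KO and 13.6 ± 1.83 CPM in WT (SD, n = 3 each), and the log2 fold change was -1.06 ± 0.24 (SE; edgeR adjusted p = 0.0382). This call was the less stable: it was lost without WT replicate 1 (adjusted p = 0.186), WT replicate 2 (0.134), WT replicate 3 (0.0552) or ICOS KO replicate 2 (0.0855), and the log2 fold change without that last library was -0.86.

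The fitted changes of Ccl3 and Ccl4 were nearly the same. The ratio of Ccl4 to Ccl3 counts was 0.897, 0.685 and 0.903 in ICOS KO libraries and 0.895, 0.782 and 0.805 in WT libraries, and the mean log2 ratio differed by -0.01 (exact two-sided permutation test, p = 1.0; adjusted over 3 ratios, 1.0). With 3 against 3 libraries that p cannot fall below 0.1, so it does not show that the ratios are equal. With a library left out the difference ran from -0.08 to 0.12. The transcripts of Ccl3 and Ccl4 in GENCODE M21 held 736 and 630 different words of 31 bases, and none of them occurred in a transcript of any other gene on either strand. In RefSeq (GRCm38.p6), however, Ccl4 spans 83648624 to 83664683 and so overlaps Ccl3 on the opposite strand. The sources used here name neither annotation nor strand setting for the counts, so a share of reads assigned across this overlap cannot be told apart.

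The sequence before the start of Ccl3 is shown because Ccl3 had the smallest p of the 6 members. That of Cxcl2 is shown because its window holds an NF-kB motif and its transcript was not called. Both were thus picked with their results known. No sequence was available here for Ccl4, the other called member, or for Ccl5. Cxcl2 was not shown to be unchanged, as the interval of its log2 fold change, -1.14 to 0.50, included the fitted change of Ccl3. The pair therefore does not contrast a changed with an unchanged gene. The sequences are the 250 bases before each RefSeq start in GRCm38.p6, a C57BL/6J reference and not the BALB/c sequence of these mice. Capitals mark the kappaB consensus and the NFAT core GGAAA, or TTTCC on the other strand.
Ccl3, chr11:83649379-83649628, minus strand: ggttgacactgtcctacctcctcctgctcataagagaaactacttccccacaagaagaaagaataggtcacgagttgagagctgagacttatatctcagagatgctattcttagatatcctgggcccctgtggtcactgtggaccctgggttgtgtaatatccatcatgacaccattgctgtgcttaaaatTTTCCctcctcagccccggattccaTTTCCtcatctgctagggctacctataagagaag
Cxcl2, chr5:90903649-90903898, plus strand: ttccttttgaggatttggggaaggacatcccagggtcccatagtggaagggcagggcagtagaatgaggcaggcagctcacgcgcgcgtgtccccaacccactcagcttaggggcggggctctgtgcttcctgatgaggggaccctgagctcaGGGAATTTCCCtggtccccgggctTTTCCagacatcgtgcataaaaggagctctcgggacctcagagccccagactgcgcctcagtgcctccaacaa
The Ccl3 window held the NFAT core at -59 and -34 from the start and no kappaB or AP-1 (TGANTCA) match. The Cxcl2 window held an overlapping pair of kappaB matches on opposite strands from -97 and -96, with a NFAT core match inside it at -92 and another at -73. Among the 4 members with a sequence in the table, Ccl1 also held overlapping kappaB matches, from -196 and -195, and NFAT core matches at -116, -86 and -51, while Xcl1 held a NFAT core match at -100. Of 32851 promoter windows of the same length, 7.3% held the kappaB consensus, 55.6% the NFAT core and 6.7% the AP-1 motif, on either strand. Matches describe these letters only.

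Ccl5, which encodes RANTES, a CC chemokine for eosinophils, T cells and monocytes that binds Ccr1 and Ccr3, lies on chromosome 11 at 83525778 to 83530518, with a gap of 117.3 kb to Ccl3. It stood at 5.10, 9.85 and 8.76 CPM in ICOS KO replicates 1 to 3, against 4.67, 7.57 and 6.62 CPM in WT replicates 1 to 3. The groups overlapped, and within each genotype replicate 1 was the lowest library. The means were 7.90 ± 2.49 CPM in ICOS KO and 6.29 ± 1.48 CPM in WT (SD, n = 3 each), and the log2 fold change was 0.33 ± 0.30 (SE; edgeR adjusted p = 0.57) with a 95% interval of -0.33 to 0.98. The interval for Ccl5 did not reach the fitted change of Ccl3. The ratio of Ccl5 to Ccl3 counts was 0.681, 1.47 and 0.952 in ICOS KO, against 0.268, 0.442 and 0.447 in WT, without overlap. The mean log2 ratio was higher by 1.39 in ICOS KO, with an exact two-sided permutation p of 0.1, the smallest that 3 against 3 libraries allow (0.15 adjusted over 3 ratios). The fall of Ccl3 itself raises this ratio, so it adds no separate evidence of a change in Ccl5. How many genes would show ratios to Ccl3 without overlap was not computed.

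Cxcl2 encodes a CXC chemokine that draws neutrophils through Cxcr2, and lies on chromosome 5 at 90903871 to 90905938. It stood at 2.13, 1.95 and 1.71 CPM in ICOS KO replicates 1 to 3, against 2.62, 2.26 and 2.36 CPM in WT replicates 1 to 3, means of 1.93 ± 0.213 CPM in ICOS KO and 2.41 ± 0.186 CPM in WT (SD, n = 3 each). Every ICOS KO library lay below every WT library, as was the case in either direction for 24.4% of all tested genes and in the lower direction for 12.5%. At these low counts, 23 to 33 in ICOS KO and 36 to 50 in WT, the log2 fold change was -0.32 ± 0.38 (SE; edgeR adjusted p = 0.664) with a 95% interval of -1.14 to 0.50. A decrease as large as that of Ccl3 was therefore not outside its interval. The ratio of Cxcl2 to Ccl3 counts was 0.284, 0.292 and 0.185 in ICOS KO and 0.151, 0.132 and 0.159 in WT, a mean log2 difference of 0.76 (exact two-sided permutation p = 0.1, adjusted 0.15). The fall of Ccl3 enters this ratio as well. Of the 31-base words in Cxcl2 transcripts 7.59% also occur in its neighbour Cxcl3, so part of its count may be divided with that gene.

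Xcl1 encodes lymphotactin, which draws cross-presenting dendritic cells through Xcr1, and lies on chromosome 1 at 164931644 to 164935527, where it overlaps the predicted gene Gm20743 on the other strand. It had 0, 2 and 0 counts in ICOS KO replicates 1 to 3, against 7, 13 and 0 counts in WT replicates 1 to 3. Summed over the group this was 0.0463 CPM in ICOS KO (exact Poisson 95% interval 0.0056 to 0.167) and 0.383 CPM in WT (0.234 to 0.591), a ratio of 0.121 with a counting interval of 0.0137 to 0.497. WT replicate 3 had no read either, and with no filter on low counts the edgeR adjusted p was 0.427. Xcl1 was thus not detectably different between genotypes beyond the spread of these libraries.

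Ccl1, a CC chemokine that binds Ccr8 on type 2 and regulatory T cells, lies on chromosome 11 at 82176666 to 82179812 (RefSeq). It had 0, 0 and 1 counts in ICOS KO replicates 1 to 3 and 1, 5 and 3 counts in WT replicates 1 to 3. The summed levels were 0.0231 CPM in ICOS KO (exact Poisson 95% interval 0.000586 to 0.129) and 0.172 CPM in WT (0.0788 to 0.327), a ratio of 0.134 with a counting interval of 0.00306 to 0.969. That interval treats reads as independent and leaves out the spread between libraries. With no filter the edgeR adjusted p was 0.476, so Ccl1 was not detectably different between genotypes beyond that spread. Both genotypes were near the level of a few reads per library.

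Levels of different genes were set side by side per kb of exon (CPM divided by the merged exon length of coding transcripts). In ICOS KO the order was Ccl5 at 14.9 ± 4.67, Ccl3 at 10.2 ± 1.68, Ccl4 at 9.91 ± 2.83 and Cxcl2 at 1.04 ± 0.115 CPM per kb (SD, n = 3). In WT it was Ccl3 at 21.5 ± 1.86, Ccl4 at 20.7 ± 2.77, Ccl5 at 11.8 ± 2.79 and Cxcl2 at 1.30 ± 0.1 CPM per kb. Ccl3 and Ccl4 overlapped in both genotypes, and Ccl5 overlapped both of them in ICOS KO but lay below them in every WT library. Xcl1 and Ccl1 came last, with WT means of 0.670 and 0.278 CPM per kb. The summed level of the 6 genes was 21.4, 23.2 and 28.1 CPM in ICOS KO, against 40.7, 41.3 and 35.9 CPM in WT. Ccl5 made up 23.8% to 42.4% of that sum in ICOS KO and 11.5% to 18.4% in WT, and Ccl3 made up 28.8% to 34.9% in ICOS KO and 41.2% to 42.8% in WT. Averaged over all 6 libraries, 68.6% of tested genes lay below Ccl3 per kb, 67.9% below Ccl4, 65.3% below Ccl5 and 19.6% below Cxcl2.

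The 6 mRNAs differ in AU-rich content, counted as the pentamer ATTTA in the 3' UTR of a GENCODE transcript. Cxcl2 held 11 copies in 734 bases, Ccl3 5 in 409, Ccl4 2 in 302 and Xcl1 1 in 141, while Ccl5 (199 bases) and Ccl1 (167 bases) held none. Across 11125 tested genes the median was 1.2 copies per kb, against 15.0 for Cxcl2, 12.2 for Ccl3, 7.09 for Xcl1 and 6.62 for Ccl4. Of tested genes 0.369% were as dense as Cxcl2 and 0.629% as dense as Ccl3. Of 8 tested regulators of AU-rich mRNA decay 1 rose and none fell, against 1.29% and 2.01% of all genes tested. It was Zfp36, which encodes tristetraprolin, a protein that binds such elements and speeds decay, at 76.6, 77.5 and 71.3 CPM in ICOS KO and 47.4, 52.6 and 48.0 CPM in WT (log2 fold change 0.61 ± 0.11; edgeR adjusted p = 0.0102, and 0.0721 without WT replicate 1). For Zfp36l2, of the same family, the fitted log2 value was -0.39 (edgeR adjusted p = 0.099), and the list's median was -0.11. Any link between Zfp36 and these transcripts was not tested.

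**Figure D2:**
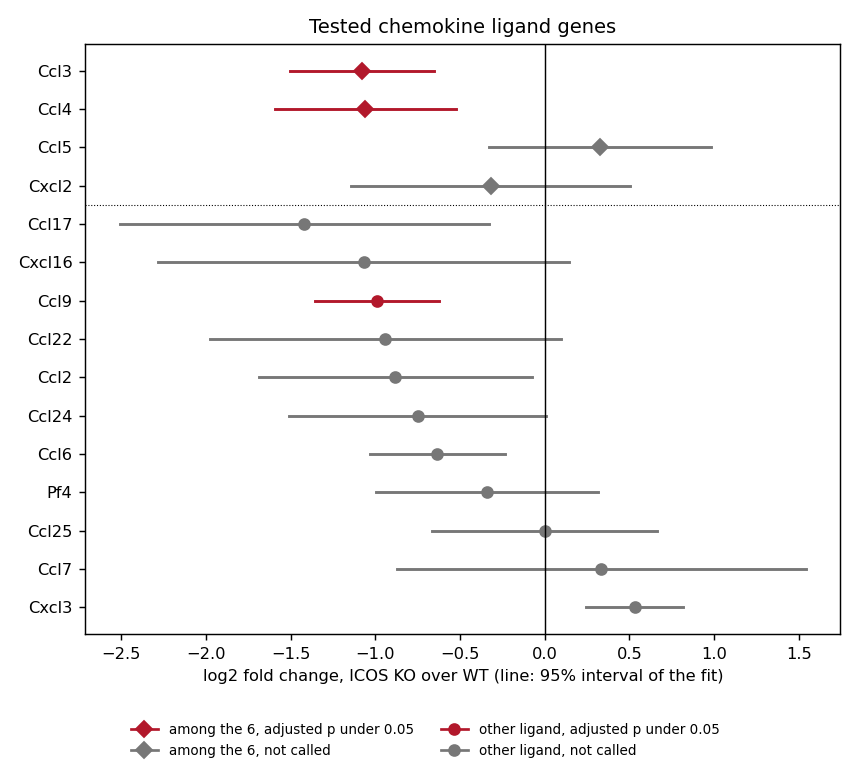
Log2 fold change of ICOS KO over WT with its 95% interval for every tested chemokine ligand gene, the 4 tested members above the dotted line and 11 other ligands below it. Ccl3, Ccl4 and Ccl9 are called lower, and 8 of the 11 other ligands have negative values.

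Other chemokine ligands were taken from a list of 32 genes, of which 19 were in the table and 11 were tested. Ccl9 alone fell and 0 rose in the edgeR test, against 2.01% and 1.29% of all genes tested. An unadjusted p under 0.05 was found for 5, a level with no computed share over all genes. DESeq2 called 3 of the list and limma voom 2, against 929 and 423 of all 13691 genes tested. The median log2 fold change of the 11 was -0.75, with 8 negative, against a median of -0.00 and 50.4% negative over all genes tested. Ccl9, a CC chemokine that binds Ccr1, stood at 16.9, 11.4 and 15.0 CPM in ICOS KO, against 27.3, 28.8 and 30.1 CPM in WT (log2 fold change -0.99 ± 0.17; edgeR adjusted p = 0.00777). It was called under all 15 alternatives. Cxcl3, a neutrophil chemokine beside Cxcl2 on chromosome 5, had the highest mean level per kb of the ligands in both genotypes. In WT its mean of 26.8 ± 2.74 CPM per kb was close to that of Ccl6, 26.5 ± 6.01 (SD, n = 3 each). Cxcl3 stood at 39.9, 38.2 and 40.0 CPM in ICOS KO and at 24.8, 26.7 and 30.3 CPM in WT, a log2 fold change of 0.53 ± 0.13. Its edgeR adjusted p of 0.05004 just missed the threshold; it passed under 7 of 15 alternatives (0.00836 with DESeq2, 0.0481 with limma voom) and reached 0.238 without WT replicate 1. Ccl6, another Ccr1 ligand, stood at 24.5 ± 4.01 CPM in ICOS KO and 38.1 ± 8.65 CPM in WT (SD, n = 3 each; edgeR adjusted p = 0.0915).

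Ccl5, Ccl9, Ccl6, Ccl3 and Ccl4 lie in this order on chromosome 11. Of this run, Ccl9, Ccl3 and Ccl4, fell by about 1 on the log2 scale, Ccl6 between them had a log2 fold change of -0.63 that did not pass the test, and Ccl5 at the end had 0.33. The measured genes outside the run were not called: Wfdc17, beyond Ccl4, gave -0.64 ± 0.31 on the log2 scale (edgeR adjusted p = 0.278) and Taf15, beyond Ccl5, 0.70 ± 0.36 (0.309).

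**Figure D3:**
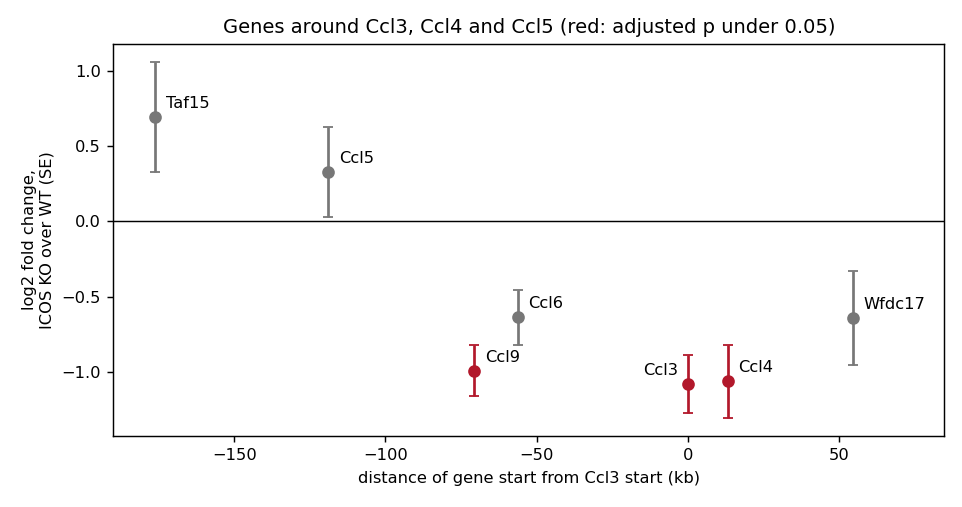
Log2 fold change of ICOS KO over WT (error bars: SE) of measured protein-coding genes around the cluster, by the distance of each gene's start from that of Ccl3 in kb. Ccl9, Ccl3 and Ccl4, in red, are called lower at about -1, and Ccl5 and Taf15 on the left are above 0.

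Of 9 receptor genes for the 6 ligands, 6 were in the table and tested, and 1 rose, against 1.29% of all genes tested. This was Ccr1, a receptor of Ccl3, Ccl5 and Ccl9, at 74.2, 58.7 and 70.3 CPM in ICOS KO and 42.8, 38.4 and 51.0 CPM in WT (log2 fold change 0.62 ± 0.14; edgeR adjusted p = 0.0348). Its call ended when only library totals were used for scaling (0.0617) and without WT replicate 1 (0.154), WT replicate 2 (0.182), ICOS KO replicate 1 (0.0503) or ICOS KO replicate 3 (0.145). Ccr3, the eosinophil receptor that binds Ccl5, gave 0.62 ± 0.19 on the log2 scale and an edgeR adjusted p of 0.107. Ccr8, the receptor of Ccl1, was the most abundant in CPM, at 75.7 ± 6.92 in ICOS KO and 88.6 ± 6.601 in WT (adjusted p = 0.284). Xcr1, the receptor of Xcl1, stood at 38.2 ± 2.22 CPM in ICOS KO and 35.1 ± 2.23 CPM in WT (adjusted p = 0.619; SD, n = 3, edgeR).

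Calls in the NF-kB list and in the NFAT and AP-1 list went in both directions. Both lists hold regulators as well as genes that are themselves induced by activation. Of 18 tested NF-kB genes 1 rose and 2 fell, against 1.29% called higher and 2.01% lower over all genes tested. Their median log2 fold change was -0.19. Nfkb2, which encodes the p100 subunit and is itself an NF-kB target, stood at 62.7, 47.5 and 51.9 CPM in ICOS KO and 103, 87.7 and 76.8 CPM in WT (-0.72 ± 0.14; edgeR adjusted p = 0.0169). Tnfaip3, the feedback inhibitor A20, stood at 11.95, 8.72 and 11.1 CPM in ICOS KO and 20.3, 16.0 and 18.4 CPM in WT (-0.78 ± 0.19; edgeR adjusted p = 0.0461). Bcl3, an atypical inhibitor family member that acts in the nucleus, rose to 280 ± 10.4 CPM in ICOS KO, against 211 ± 6.89 CPM in WT (SD, n = 3 each; 0.41 ± 0.09; edgeR adjusted p = 0.0259). Nfkb1, Rela and Nfkbia were not called, with log2 fold changes of 0.08, -0.26 and -0.07. None of the 3 calls held in every fit that left out a library: those of Nfkb2, Tnfaip3 and Bcl3 were lost in 4, 5 and 4 of 6, with adjusted p up to 0.102, 0.211 and 0.162. Tnfaip3 also lost its call with upper-quartile scaling (edgeR adjusted p = 0.0504), limma voom (0.056) and no filter (0.0549), and Bcl3 with library totals alone (edgeR adjusted p = 0.066).

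Of 19 tested NFAT and AP-1 genes 1 rose and 1 fell, against 1.29% called higher and 2.01% lower over all genes tested. Their median log2 fold change was -0.23. Prkcq, the kinase PKC-theta that links receptor signals to NF-kB, rose to 63.4 ± 2.44 CPM in ICOS KO, against 33.9 ± 1.43 CPM in WT (SD, n = 3 each; 0.91 ± 0.11; edgeR adjusted p = 0.00107), and was called under all 15 alternatives. Egr1, an immediate early transcription factor, stood at 44.8, 41.6 and 47.7 CPM in ICOS KO and 80.6, 65.1 and 56.3 CPM in WT (-0.59 ± 0.14; edgeR adjusted p = 0.0472), a call that ended in 5 of 6 leave-one-out fits and held without WT replicate 3 (adjusted p up to 0.237), and that also ended with limma voom (0.0555) and with no filter (0.0565). Egr2 and Nr4a1, also induced within minutes of activation, had log2 fold changes of -1.02 and -0.92 with adjusted p of 0.0634 and 0.0624. Fos and Batf, both AP-1 family members, had 0.50 (0.0689) and 0.42 (0.0614).

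**Figure D4:**
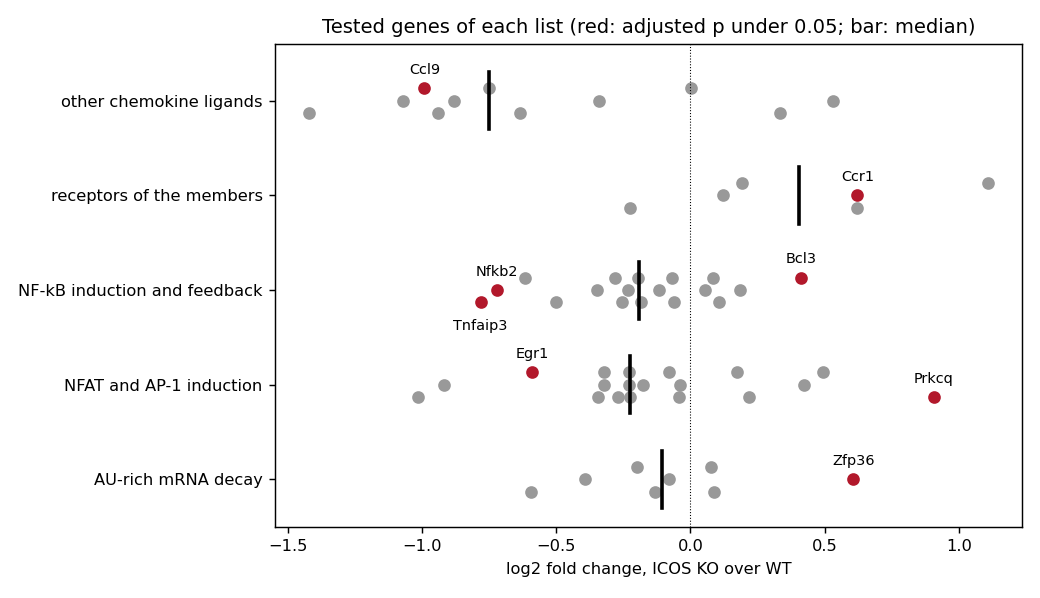
Log2 fold change of ICOS KO over WT for each tested gene of the 5 lists, with called genes in red and named and the list's median as a black bar. Calls lie on both sides of 0 in the NF-kB list and in the NFAT and AP-1 list, and the other ligands have the lowest median, -0.75.

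The transcripts most like each tested member were found by Pearson r of log2 CPM over the 6 libraries among 9143 genes; r includes the genotype difference and has no p. For Ccl3 they were Tnf (r = 0.999), the gene of tumour necrosis factor, Ccdc184 (0.998) and Slco3a1 (0.996). Tnf stood at 7.94, 6.69 and 9.50 CPM in ICOS KO and at 22.9, 22.3 and 18.8 CPM in WT. For Ccl4 they were Zzz3 (0.998), Dcstamp (0.997) and Sh2d2a (0.995), and Ccl3 ranked only 28th there (0.974). Those most like Ccl5 were Dtymk (0.997), Mrpl55 (0.987) and Phb2 (0.986), none of them called, and those most like Cxcl2 were D5Ertd579e (0.994), Heatr1 (0.992) and Kmt2c (0.99), none of them called.

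Transcripts listed as markers of other cells that can make these chemokines also differed between the genotypes. Beside the edgeR counts of these lists stand the shares over all genes tested, 2.01% called lower and 1.29% higher. Of 8 tested mast cell and basophil markers 7 fell and none rose, and the list summed to 57.7 to 70.3 CPM in ICOS KO, against 348 to 403 CPM in WT. Kit, a receptor of mast cells, was not called, at 20.23 ± 2.86 CPM in ICOS KO and 20.25 ± 1.40 CPM in WT (SD, n = 3 each, edgeR adjusted p = 0.998). Tpsab1, a mast cell tryptase, was the most abundant at 34.7, 21.1 and 33.5 CPM in ICOS KO and 280, 237 and 231 CPM in WT. Cpa3, a mast cell carboxypeptidase, was at 0.451 to 2.52 CPM in ICOS KO and 25.1 to 31.5 CPM in WT. Fcer1a, part of the IgE receptor, was at 0, 0.2255 and 0 CPM in ICOS KO and 1.78, 1.63 and 1.77 CPM in WT. Of 5 tested macrophage markers 1 fell, Csf1r, at 2.75 to 5.23 CPM in ICOS KO and 8.99 to 13.4 CPM in WT. That list summed to 41.7 to 72.7 CPM in ICOS KO and 76.9 to 116 CPM in WT. Lyz2, its most abundant gene, was at 44.0 ± 12.9 CPM in ICOS KO and 64.5 ± 15.6 CPM in WT (edgeR adjusted p = 0.185). Adgre1 was at 5.78 ± 1.93 CPM in ICOS KO and 6.16 ± 2.74 CPM in WT (SD, n = 3 each, edgeR adjusted p = 0.921). C1qa, C1qb and C1qc were at no more than 1.04 CPM in any library.

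NK cell and ILC1 markers, listed because such cells can also make Ccl3, Ccl4, Ccl5 and Xcl1, were split. Of 4 tested, Gzma rose to 424, 614 and 685 CPM in ICOS KO, against 137, 181 and 185 CPM in WT, and it carried nearly all of the list's sum of 430 to 693 CPM in ICOS KO and 145 to 190 CPM in WT. The defining markers Ncr1 and Tbx21 fell: Ncr1 was at 0, 0 and 0.0742 CPM in ICOS KO and 1.42, 1.21 and 1.64 CPM in WT. Of 6 tested T cell markers the receptor genes Trbc1 and Trbc2 rose, to 123 ± 20.9 and 231 ± 23.7 CPM in ICOS KO, against 59.0 ± 5.39 and 152 ± 12.6 CPM in WT (SD, n = 3 each), and they carried most of the list's sum of 367 to 469 CPM in ICOS KO and 245 to 300 CPM in WT. Cd3e, part of the T cell receptor complex, fell, at 3.10, 0.752 and 3.04 CPM in ICOS KO, against 7.76, 10.5 and 8.39 CPM in WT (edgeR adjusted p = 0.0281). Cd3g, of the same complex, went the other way, at 63.3 ± 11.2 CPM in ICOS KO and 48.2 ± 8.3 CPM in WT (edgeR adjusted p = 0.214). Mean levels in ICOS KO and WT were 0.977 and 1.16 CPM for Cd3d and 0.579 and 0.988 CPM for Trac, neither called. Cd8a was at 0 in every ICOS KO library and in WT replicate 1. Neither of 2 tested dendritic cell markers, nor any of 5 tested neutrophil markers, was called by edgeR; 1 and 2 of them had an unadjusted p under 0.05, and DESeq2 called 0 and 1. Sums of B cell markers were 29.7 to 45.8 CPM in ICOS KO and 25.2 to 26.3 CPM in WT (1 of 4 tested rose), and those of lung structural markers 142 to 265 CPM in ICOS KO and 143 to 240 CPM in WT (1 of 5 rose, Epcam). Of the structural markers Sftpc went the other way without a call, at 8.59, 0.15 and 15.6 CPM in ICOS KO and 46.6, 22.6 and 29.8 CPM in WT (edgeR adjusted p = 0.1415). Of 11 tested RNA quality genes, mostly mitochondrial, edgeR called 1 higher, the haemoglobin gene Hba-a1, and DESeq2 2. All 11 had positive log2 fold changes (median 0.67), and 10 had an unadjusted p under 0.05. Hbb-bs, the other haemoglobin gene of that list, did not pass the filter and went the other way. It was at 0 in every ICOS KO library and at 2.46, 0.736 and 0.459 CPM in WT. That list summed to 3924, 7654 and 6065 CPM in ICOS KO, against 3048, 3437 and 4831 CPM in WT. Whether a marker transcript came from such other cells or from the ILC2s themselves was not tested. In bulk libraries fewer cells of a type and less RNA per cell cannot be told apart. The part of other cells or of RNA quality in the falls of Ccl3 and Ccl4 was not tested.

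**Figure D5:**
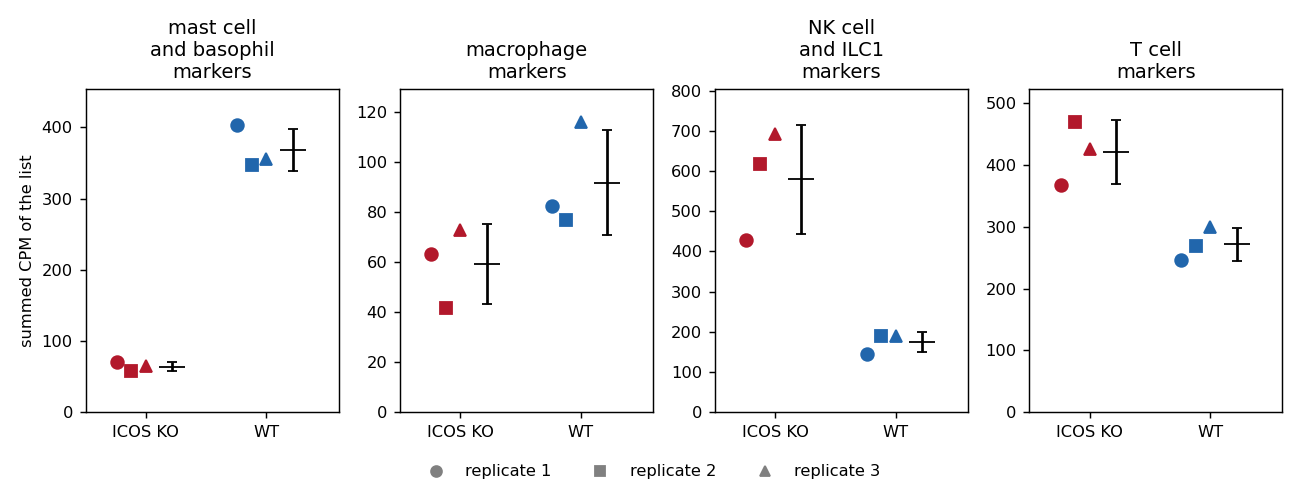
Summed TMM-normalised CPM of 4 marker lists in each ICOS KO library (red) and WT library (blue), with the mean and SD (n = 3) as a black bar and marker shape giving the replicate. The mast cell and basophil sum lies between 57.7 and 70.3 CPM in ICOS KO and between 348 and 403 CPM in WT, and the NK cell and ILC1 sum, mostly Gzma, and the T cell sum, mostly Trbc1 and Trbc2, are higher in every ICOS KO library.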

How the data were processed

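RNA of 6 libraries of sorted, cultured mouse lung ILC2s was converted to cDNA with a low-input SMARTer kit, per the labels' protocols; no molecular identifiers are named, so reads are not independent molecules. Partek 10.0, STAR 2.7.8, DESeq2 and the build mm10 are named in the submitters' processing notes; the sources used here name no annotation, counting method or strand setting. The single deposited table held the authors' estimated counts for 18122 genes; of its values 38.95% were not whole (tolerance 1e-06), and the lowest total of a gene was 10; values were rounded here. Libraries were matched by the library name in the labels.

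Genes were kept with filterByExpr (13691), normalised with TMM and tested for ICOS KO over WT in R 4.3.3 with the quasi-likelihood test of edgeR 4.0.16, no covariate in the model, p adjusted by Benjamini-Hochberg over all genes and a threshold of 0.05. The fit was tested on simulated data. Library pairs differed by at least 8.85 in chi-square per degree of freedom, so none was a copy. Positions and 3' UTRs came from GENCODE M21 (17691 symbols matched) and promoters from RefSeq (GRCm38.p6; 4 of 6 members matched). The members and lists were chosen with earlier results of these data known. Named genes were the 6 members, called genes of the 5 pathway lists or else those with the smallest p, the 3 genes most like each tested member with a mean of at least 5 CPM (prior count 2), Icos, and called or most abundant markers; Taf15, Wfdc17, Ccl6, Cxcl3 and other uncalled genes named beside them were chosen after their values were seen. Alternatives were other scalings, DESeq2 1.42.0, limma 3.58.1 voom, other filters, the replicate number as a block, mitochondrial and haemoglobin genes left out, and each library left out. The 3 ratios were chosen after seeing the data. The values of 1 listed receptor gene are not reported here.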

Additional observations from a re-analysis of the deposited data

How the results depend on the processing

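The count of called genes, 451, was 929 with DESeq2, 784 with the replicate number as a block and 193 to 1090 with a library left out. Ccl3 and Ccl4 kept negative log2 fold changes under all 15 alternatives and were called under 13 and 11; without a library they ranged from -1.22 to -0.98 and from -1.27 to -0.86, and the lost calls are given above. Ccl5 and Cxcl2 were not called under any alternative, and Cxcl2 had no value with a filter of 5 CPM. Same-numbered libraries of the genotypes deviated together only weakly (r = 0.0868, 0.0784 and 0.0643 across genes), though each correlated best with its own number; with the replicate number as a block Ccl3 had -1.09 (edgeR adjusted p = 0.015) and Ccl4 -1.09 (0.03). Calls among other ligands numbered 3 with DESeq2, 2 with its size factors in edgeR, upper-quartile scaling, limma voom, a filter of 5 CPM, the block or mitochondrial and haemoglobin genes left out, and 1 to 2 with a library left out. Calls among receptors were 0 with library totals alone and 0 to 1 with a library left out. In the NFAT and AP-1 list they were 4 with library totals alone, 6 with DESeq2, 1 with limma voom or no filter, 5 with the block and 1 to 3 with a library left out. In the NF-kB list they were 0 to 3 with a library left out, and in the decay list 2 with DESeq2 and 0 to 1. The higher genes made up 39% of all calls and 28.2% with library totals alone. Depth limits Cxcl2, Xcl1 and Ccl1, which had at most 50 counts in a library.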
